A study of Mus musculus with 3 samples.

Results

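The genes described here are the nuclear-encoded genes of oxidative phosphorylation in mouse T-helper 1 (Th1) cells. They are the protein-coding genes whose symbols begin with Ndufa, Ndufb, Ndufc, Ndufs, Ndufv, Uqcr, Cox4, Cox5, Cox6, Cox7, Cox8 or Atp5, together with Sdha, Sdhb, Sdhc and Sdhd. The rule used symbols and biotypes and no measured value. It found 93 genes among 21764 protein-coding genes and 50600 genes in all, spread over 19 chromosomes, with 0 on the mitochondrial chromosome. RNA was sequenced from primary Th1 cells of the C57BL/6NJ strain in 3 libraries, labelled as biological replicates 1, 2 and 3, which form 1 group. No mutation, added agent or second condition is labelled, age and sex are not given, and the file headers name a time point of 2 hours. Each library has its own biosample but the same donor entry, so the spread between replicates may be technical and the p-values below measure only the spread between these samples.

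Oxidative phosphorylation takes place on the inner mitochondrial membrane. Complexes I (NADH dehydrogenase) and II (succinate dehydrogenase) pass electrons through ubiquinone to complex III (the cytochrome bc1 complex) and on, through cytochrome c, to complex IV (cytochrome c oxidase), while complexes I, III and IV pump protons. Complex V, the ATP synthase, uses the resulting gradient to make ATP. Most subunits are encoded in the nucleus and imported, and a small set is encoded by mitochondrial DNA. Activated T cells are known to raise both glycolysis and mitochondrial respiration as they grow and divide. Of the 93 genes, 36 were taken as complex I subunits, 8 as complex I assembly factors (Ndufaf1 to Ndufaf8), 4 as complex II, 8 as complex III, 20 as complex IV and 17 as complex V. Ndufa4 and its paralogue Ndufa4l2 were placed with complex IV, where NDUFA4 is now known to sit, and Atp5s, the coupling factor B, with complex V. Cyc1, the cytochrome c1 of complex III, is outside the prefixes.

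The libraries held 4442901, 3123869 and 2950658 counts in replicates 1, 2 and 3. Markers of CD4 T cells were present, with 7 of 7 reaching 1 TPM in every library (summed TPM 1368 to 3192). Of 11 markers of other cells, 6 had no count in any library, among them Ms4a1, Lyz2 and Hbb-bs, and 4 reached 1 TPM in every library (summed TPM of the list 191 to 219). These were Csf1r, whose exons overlap a gene of the other strand, at 129 to 175 TPM, the B cell receptor component Cd79a at 27.0 to 48.7 TPM, the macrophage marker Cd68 at 5.62 to 8.06 TPM and Cd8b1, of CD8 T cells, at 3.97 to 10.5 TPM. The part of other cells in the levels below was not tested. Replicate 1 stood apart. Protein-coding genes whose span overlaps no gene of the other strand, called unopposed here, took 25.7% of the TPM of replicate 1, 12.7% in replicate 2 and 15.8% in replicate 3. Because the samples are bulk RNA, fewer cells of a type and less RNA per cell cannot be told apart.

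A limit on every level below is the strand of the counts. Per the file headers, a read pair was counted for a gene when its first read lay on the gene's own strand. Whether that setting matches the orientation of the libraries was not tested. The mitochondrial genes, which are dense on one strand, bear on it. Mt-Nd6, the mRNA encoded on the strand opposite to the rest, was given 31858, 22709 and 31808 counts, against 38231, 22189 and 12885 for the other 12 mitochondrial mRNAs summed. Per exon base that put mt-Nd6 17.5-, 21.5- and 51.8-fold above the others. If the setting were opposite to the library, the counts given to a gene would come from RNA of the other strand or from misassigned pairs, and the values below would not be levels of the gene's mRNA. They are therefore given as counts and TPM assigned to each gene.

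TPM, a unit of relative abundance, is the count per exon base scaled so that each library has the same sum. The 93 genes took 0.501%, 0.238% and 0.301% of the TPM in replicates 1, 2 and 3 (0.347% ± 0.138, SD, n = 3). Their counts were 18496, 8193 and 8995, which are 0.416%, 0.262% and 0.305% of the totals. The 95% Wilson intervals for counting error were 0.41% to 0.422%, 0.257% to 0.268% and 0.299% to 0.311%. The median gene of the set lay at 33.0, 13.3 and 17.8 TPM, against 0.303, 0.252 and 0.201 TPM for the median protein-coding gene. A level of 1 TPM or more in every library was reached by 83 of 93, against 38.7% of protein-coding genes. The 10 that missed it comprise 7 of the 8 tissue-restricted forms of complex IV subunits, and Ndufb4, Atp5l and Atp5s. The order of the genes was close to the same in each library, with rank correlations across genes of 0.939 between replicates 1 and 2, 0.970 between 1 and 3 and 0.955 between 2 and 3 (n = 93 genes, which are not independent replicates).

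**Figure D1:**
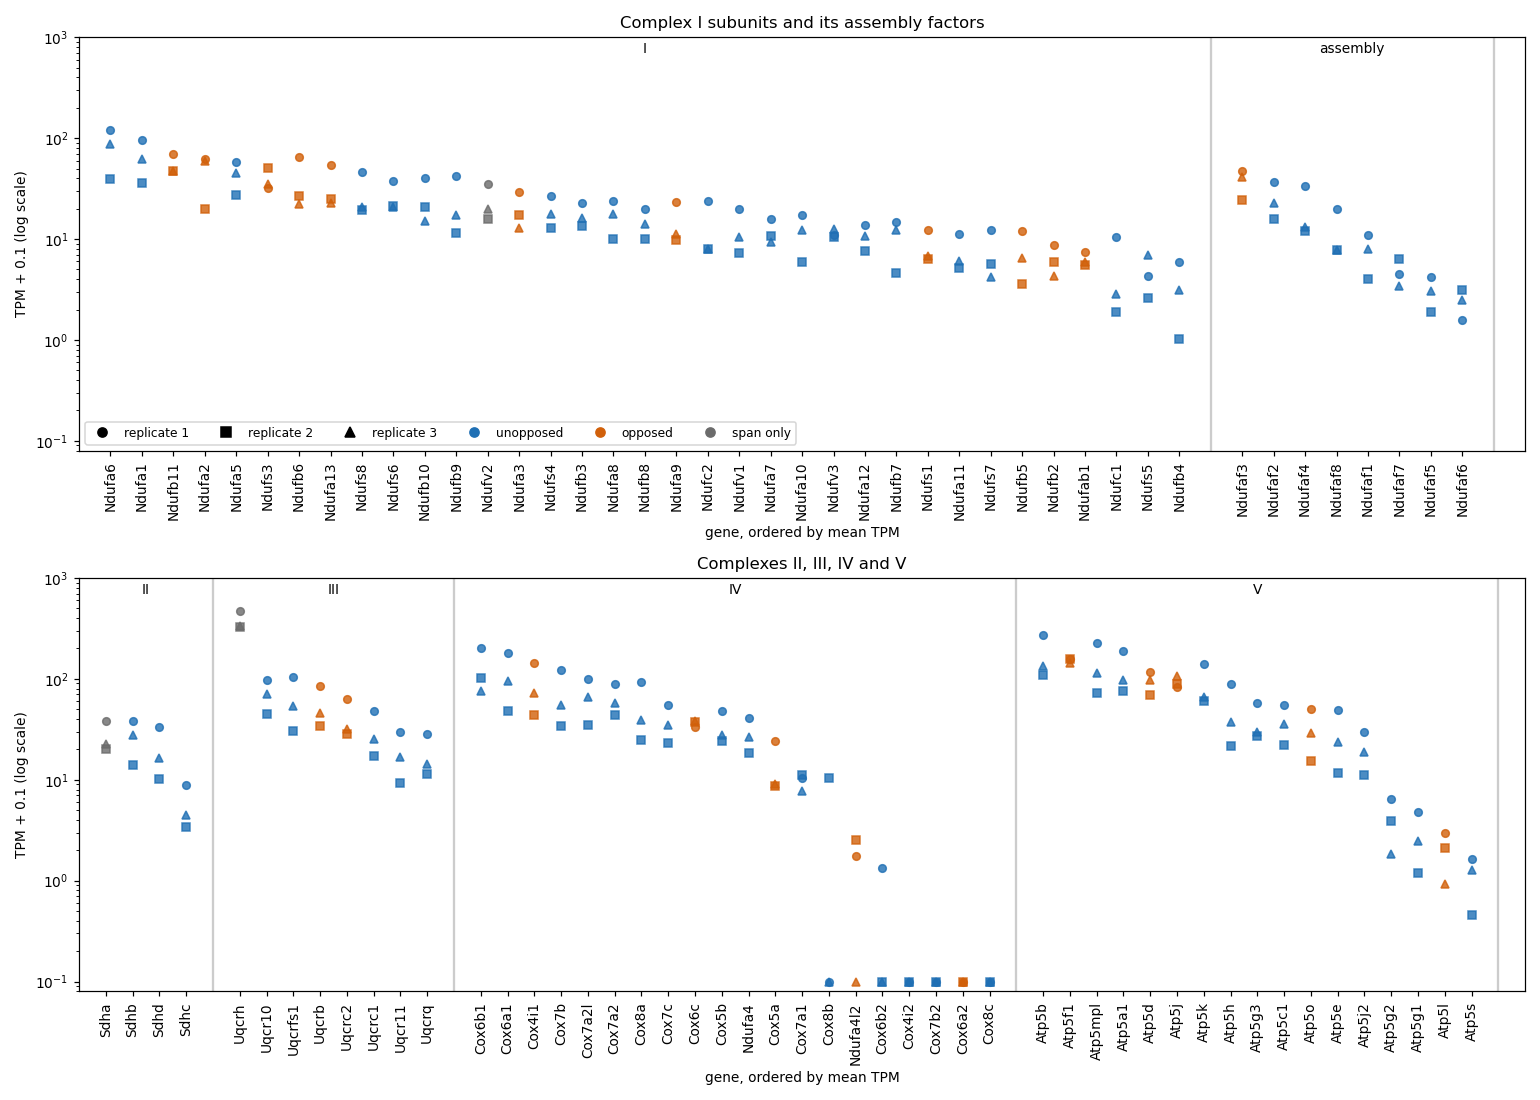
Level of the genes of the set in each library, as TPM + 0.1 on a log scale, ordered by mean TPM within each complex. Circles, squares and triangles are replicates 1, 2 and 3, and the colour gives the overlap with genes of the other strand. Uqcrh is highest at 328 to 474 TPM, and the symbols on the bottom line of complex IV are genes with no count in that library.

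Upstream sequences of 6 of these genes are shown because they hold, or lack, the short motifs known from promoters of respiratory chain genes. Each window runs from 250 bases before to 50 bases after the annotated start, from RefSeq on GRCm38.p6, and 74 of the 93 genes had a window. Capitals mark the motifs GCGCATGCG (the core bound by NRF1), CCGGAAG (the core bound by ETS factors, GABP among them), the longer CCGGAAGTG, which contains CCGGAAG, and AAGATGGCG (bound by YY1), on either strand. Atp5k and Cox6a1 hold GCGCATGCG on both strands at 1 overlapping position, and CCGGAAG on the other strand. Atp5j has a pair of windows in the table. The one printed, at a start inside the gene's span in the count files, holds AAGATGGCG and CCGGAAG and overlaps the first bases of Gabpa, the gene of a GABP subunit, on the other strand. The other window (chr16:84835576-84835875), at the outermost start, holds none of the motifs. Uqcrh and Ndufs3 are the pair of genes with CCGGAAGTG, and Cox7a1, a form known from heart and skeletal muscle, is shown as a window with none of the motifs. The windows of Atp5b and Atp5g3, general subunits of complex V, also hold none.
Atp5k (chr5:108434350-108434649, minus strand): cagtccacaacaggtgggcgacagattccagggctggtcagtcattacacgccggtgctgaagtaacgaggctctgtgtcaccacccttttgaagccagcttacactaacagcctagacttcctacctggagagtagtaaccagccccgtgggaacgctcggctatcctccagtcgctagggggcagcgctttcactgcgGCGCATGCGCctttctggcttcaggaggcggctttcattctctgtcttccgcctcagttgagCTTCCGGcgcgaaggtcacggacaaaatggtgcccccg
Cox6a1 (chr5:115348909-115349208, minus strand): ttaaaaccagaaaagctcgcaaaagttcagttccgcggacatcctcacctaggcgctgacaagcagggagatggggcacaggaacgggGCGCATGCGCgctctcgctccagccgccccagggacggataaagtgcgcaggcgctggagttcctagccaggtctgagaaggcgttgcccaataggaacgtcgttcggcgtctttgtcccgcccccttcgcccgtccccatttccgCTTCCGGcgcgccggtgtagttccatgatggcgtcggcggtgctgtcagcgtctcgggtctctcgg
Atp5j (chr16:84834927-84835226, minus strand): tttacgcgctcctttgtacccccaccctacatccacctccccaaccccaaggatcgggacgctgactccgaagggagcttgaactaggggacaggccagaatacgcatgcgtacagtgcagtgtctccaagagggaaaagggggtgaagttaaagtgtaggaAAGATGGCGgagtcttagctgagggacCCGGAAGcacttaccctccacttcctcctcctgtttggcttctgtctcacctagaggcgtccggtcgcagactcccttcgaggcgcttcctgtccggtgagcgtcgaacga
Uqcrh (chr4:116075021-116075320, minus strand): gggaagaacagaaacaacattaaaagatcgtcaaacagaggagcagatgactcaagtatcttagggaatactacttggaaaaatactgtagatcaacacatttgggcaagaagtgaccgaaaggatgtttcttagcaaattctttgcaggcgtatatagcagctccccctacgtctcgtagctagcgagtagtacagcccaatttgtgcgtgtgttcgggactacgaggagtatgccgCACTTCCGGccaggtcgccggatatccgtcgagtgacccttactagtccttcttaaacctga
Ndufs3 (chr2:90904672-90904971, minus strand): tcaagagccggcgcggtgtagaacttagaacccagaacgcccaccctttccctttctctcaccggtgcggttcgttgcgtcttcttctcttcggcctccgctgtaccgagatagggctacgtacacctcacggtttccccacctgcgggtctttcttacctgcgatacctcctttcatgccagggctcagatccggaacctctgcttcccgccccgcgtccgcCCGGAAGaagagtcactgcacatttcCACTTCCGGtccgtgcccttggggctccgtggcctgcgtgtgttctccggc
Cox7a1 (chr7:30183921-30184220, plus strand): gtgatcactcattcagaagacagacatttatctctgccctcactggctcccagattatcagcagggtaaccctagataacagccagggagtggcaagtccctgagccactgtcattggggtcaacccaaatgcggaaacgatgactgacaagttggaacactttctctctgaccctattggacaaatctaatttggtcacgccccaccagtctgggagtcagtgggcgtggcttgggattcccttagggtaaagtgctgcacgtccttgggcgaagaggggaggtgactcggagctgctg

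Counting a gene once where any of its windows held the motif, GCGCATGCG was present in 10 of 74 genes of the set (13.5%), against 2.61% of 17492 protein-coding genes with a window. AAGATGGCG was present in 8 (10.8%, against 2.14%) and CCGGAAG in 18 (24.3%, against 12.9%). The longer CCGGAAGTG was present in 2 (2.70%, against 3.01%). Genes with GCGCATGCG ranged from Atp5l at 1.88 to Cox6a1 at 107 mean TPM, so the motif was found at both low and high levels. Those with AAGATGGCG ranged from Ndufc1 at 4.98 to Atp5j at 93.1 mean TPM. A match describes letters in the window only.

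Over all genes of the set, on the TPM scale, complex III had the highest median level and complex I the lowest of the 5 complexes, in each of the 3 libraries. The medians in replicates 1, 2 and 3 were 74.4, 29.6 and 38.7 TPM for complex III (47.5 ± 23.7) and 57.0, 21.8 and 35.2 TPM for complex V (38.0 ± 17.8). Complex IV followed at 36.9, 20.6 and 27.1 TPM (28.2 ± 8.20), and complex II at 35.6, 11.9 and 19.4 TPM (22.3 ± 12.1). Complex I lay at 23.3, 10.6 and 13.4 TPM (15.8 ± 6.71), and its assembly factors at 15.3, 6.96 and 7.81 TPM (10.04 ± 4.61). The ranges of neighbours in this order overlapped between libraries, although the order itself was the same in each library. All of these medians were highest in replicate 1 and lowest in replicate 2, so the SDs hold a shift that they share. The differences within libraries were not tested. The first place of complex III changed with the measure: over unopposed genes alone its mean median was 30.0 TPM, below complex V at 36.7 and complex IV at 32.7, and as CPM, without length correction, it was 35.8 against 36.4 for complex V. Complex I stayed lowest of the 5 by both measures. The place of complex IV rests on its 8 tissue-restricted forms: the other 12 genes had a median of 57.4 ± 29.7 TPM. Of the TPM of the whole set, complex V held 30.5%, 31.3% and 31.1%, complex I 22.6%, 22.8% and 23.4%, complex IV 22.8%, 19.6% and 20.1%, and complex III 18.5%, 21.2% and 19.7%. These shares varied far less between libraries than the levels did. Taking them within each library removes, by construction, a shift shared by the whole set, so this is no result about the complexes. The 10 genes of highest level held 40.7%, 46.6% and 42.0% of the TPM of the set.

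In complex I the core subunits, which carry the flavin and the iron-sulfur clusters, had a median of 21.7 ± 7.29 TPM (n = 7 genes) and the accessory subunits 15.4 ± 6.71 TPM (n = 29 genes). Ndufs3, a core subunit of the peripheral arm, had the highest mean of the core, at 32.1, 50.2 and 34.6 TPM and was lowest in replicate 1, unlike most of the set. Ndufs8, which binds iron-sulfur clusters near the quinone site, lay at 45.5, 19.4 and 20.8 TPM. Ndufv2, an iron-sulfur subunit, lay at 35.1, 15.8 and 19.8 TPM. Ndufv1, the subunit that binds NADH and flavin, lay at 19.9, 7.19 and 10.3 TPM, and was 0.514 ± 0.0565 of Ndufv2, its partner in the NADH module, in TPM. Lowest of the core were Ndufs1, the large iron-sulfur subunit, at 12.1, 6.20 and 6.70 TPM and Ndufs7 at 12.2, 5.59 and 4.11 TPM. The 7 core genes thus spanned a range of mean level from 7.31 TPM for Ndufs7 to 39.0 TPM for Ndufs3.

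Among accessory subunits the highest were Ndufa6 at 121, 39.0 and 88.4 TPM (82.7 ± 41.2) and Ndufa1 at 94.9, 35.6 and 61.9 TPM (64.1 ± 29.7), both highest in replicate 1 and lowest in replicate 2. At the other end, Ndufs5 had 8, 4 and 10 counts (4.53 ± 2.20 TPM) and Ndufb4 had 15, 2 and 6 counts (3.26 ± 2.48 TPM). Such counts are near the limit of 3 that a count of 0 allows, and 21.7% and 18.3% of the 50-base words of these 2 genes also occur in transcripts of other genes, so their reads may be shared. Among the assembly factors, Ndufaf3 was highest at 47.3, 24.1 and 41.2 TPM, followed by Ndufaf2 at 37.0, 15.7 and 22.6 TPM. Ndufaf5 (16, 6 and 9 counts) and Ndufaf6 (4, 7 and 5 counts) were lowest. Ndufaf7, a methyltransferase that acts in complex I assembly, had 22, 27 and 13 counts. It did not follow the order of the libraries seen in most of the set. It lies 65 bases from Cebpz on the other strand, which had 1349, 665 and 672 counts.

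In complex II, Sdha, the flavoprotein, lay at 38.2, 20.0 and 22.4 TPM and Sdhb, the iron-sulfur subunit, at 38.2, 13.8 and 27.4 TPM. The membrane anchors differed from each other, with Sdhd at 33.0, 9.96 and 16.3 TPM and Sdhc at 8.86, 3.28 and 4.35 TPM. Sdha was above Sdhc in every library, by 5.20 ± 0.897 times in TPM. All 4 genes were highest in replicate 1 and lowest in replicate 2.

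Uqcrh, the hinge protein of complex III, was the highest of all 93 genes at 474, 328 and 335 TPM (379 ± 82.1), which was 9.45%, 13.8% and 11.1% of the TPM of the set. Its span, at chr4:116066965-116075071 on mm10, holds the processed pseudogene Gm12854, which had 68, 53 and 67 counts against 1283, 762 and 704 for Uqcrh. It also lies 198 bases from Lrrc41 on the other strand, with 77, 32 and 38 counts. Uqcr10 came next at 97.8, 44.7 and 70.6 TPM. The Rieske iron-sulfur protein Uqcrfs1 lay at 103, 30.5 and 53.6 TPM. Of the large core proteins, Uqcrc2 lay at 63.2, 28.6 and 31.6 TPM and Uqcrc1 at 47.5, 17.0 and 25.5 TPM, a ratio of 1.42 ± 0.233. Uqcr11 at 29.9, 9.15 and 16.5 TPM and Uqcrq at 28.2, 11.3 and 14.2 TPM were lowest. Cyc1 lay at 69.6, 22.3 and 38.0 TPM. All 8 genes of complex III in the set were highest in replicate 1 and lowest in replicate 2.

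Of the general subunits of complex IV, Cox6b1, which joins the monomers of the enzyme, was highest at 203, 102 and 76.5 TPM and Cox6a1 followed at 178, 47.8 and 94.8 TPM. Cox4i1, the largest nuclear subunit, lay at 145, 43.7 and 72.2 TPM. Cox5b lay at 47.4, 24.4 and 27.7 TPM and Cox5a at 24.4, 8.63 and 8.97 TPM. Ndufa4 lay at 40.4, 18.1 and 26.4 TPM. Cox6c was even on the TPM scale, at 33.4, 37.2 and 38.5 TPM from 261, 249 and 233 counts. It was lowest in replicate 1, where most of the set was highest. Scaled to unopposed protein-coding genes alone it varied more, at 130, 294 and 243 TPM, a coefficient of variation of 37.7% against 7.21% before, and it was called beyond counting noise. Its exons overlap 250 bases of Vps13b on the other strand, which had 201, 142 and 76 counts.

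Paralogues that stand at the same position of complex IV were set against each other in 9 pairs, and the 3 c-ring genes of complex V in 3 more. In 8 of these 9 pairs the second gene is a restricted form, and in every library the form known from most tissues was above the form known from muscle, lung, testis or other restricted sites. Cox4i2, Cox6a2, Cox7b2 and Cox8c had no count in any library. Against a floor of 3 counts per library, Cox4i1 was at least 83.4-, 21.5- and 32.2-fold higher than Cox4i2 in replicates 1, 2 and 3, per exon base. Cox6a1 was at least 88.5-, 20.3- and 36.5-fold higher than Cox6a2. Cox7b was at least 48.7-, 11.6- and 16.8-fold higher than Cox7b2, and Cox8a at least 32.0-, 7.28- and 10.5-fold higher than Cox8c. In each of these pairs the bound was smallest in replicate 2, where the first gene had its fewest counts.

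Other restricted forms had a few counts. Cox6b2, a testis form, had 3, 0 and 0 counts against 543 in all for Cox6b1, a ratio per base of 283 with a 95% interval from 96.4 to 1378. Cox8b, known from muscle, had 0, 7 and 0 counts against 171 in all for Cox8a (ratio 16.1, interval 7.66 to 40.7), and all of them lay in replicate 2. Ndufa4l2, known as a hypoxia-induced form, had 4, 5 and 0 counts against 231 in all for Ndufa4 (ratio 20.4, interval 10.5 to 45.1). Cox7a1 was the restricted form with most counts, 12, 11 and 7, at 10.3, 10.96 and 7.71 TPM. Cox7a2 was above it at 89.5, 43.5 and 58.0 TPM, a log2 ratio of 2.61 ± 0.60. Cox7a1 lies 858 bases from Capns1, and Cox8b 302 bases from Psmd13, genes of the other strand with 81 to 244 counts in each library. Their part in these few counts was not tested. Cox7a2l, a factor that joins complexes III and IV, did not differ from Cox7a2 beyond the spread, at 100, 34.4 and 65.7 TPM (log2 ratio of Cox7a2 to it -0.0012 ± 0.29, exact sign-flip permutation p = 1, ratio 0.9501 with an interval from 0.825 to 1.09).

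**Figure D2:**
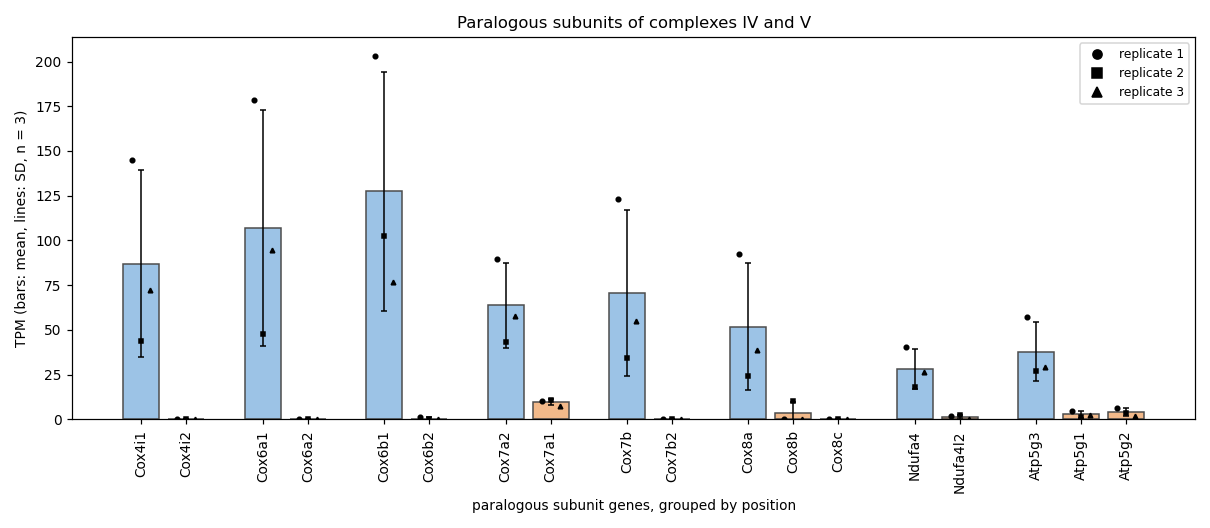
Level in TPM of paralogous subunit genes of complexes IV and V, grouped by position. Bars are means, lines are SDs over 3 libraries, points are libraries, and the blue bar of each group is the form named first. Cox4i2, Cox6a2, Cox7b2 and Cox8c have no count, and Atp5g3 lies at 27.1 to 57.0 TPM, above Atp5g1 and Atp5g2 in each library.

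Complex V held both genes of most counts, Atp5b and Atp5f1. Atp5b, the catalytic beta subunit, had 2522, 864 and 973 counts (272, 109 and 135 TPM), and Atp5a1, the alpha subunit, had 1286, 445 and 521 counts (187, 75.7 and 97.9 TPM). Their ratio was the steadiest of those computed, at 1.45, 1.44 and 1.38 (1.42 ± 0.0365). Alpha and beta stand in equal number in the enzyme and gamma once per head. Against Atp5c1, the gamma subunit at 55.3, 21.8 and 35.2 TPM, Atp5a1 was 3.39, 3.47 and 2.78 times as high (3.21 ± 0.377) and Atp5b 4.92, 4.99 and 3.84 times as high (4.58 ± 0.641). Atp5d, the delta subunit, lay at 118, 68.8 and 96.8 TPM and Atp5e, the epsilon subunit, at 48.7, 11.5 and 23.5 TPM. The F1 head as a whole had a median of 94.4 ± 24.4 TPM.

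On the TPM scale, 2 of the 4 stalk genes were the evenest of the complex. Atp5f1, the b subunit, lay at 158, 155 and 143 TPM from 1423, 1197 and 995 counts, and Atp5j, coupling factor 6, at 83.5, 89.2 and 107 TPM from 572, 524 and 567 counts. Scaled to unopposed protein-coding genes alone they were not even: their coefficients of variation were then 33.4% and 37.1%, against 12.7% for Atp5b and 10.99% for Atp5a1, and both were lowest in replicate 1. Both overlap genes of the other strand. Atp5h, subunit d, was highest in replicate 1 and lowest in replicate 2, at 89.2, 21.5 and 37.4 TPM. Of the genes of the c-ring, whose products are identical once the import sequence is removed, Atp5g3 was highest at 57.0, 27.1 and 29.4 TPM. Atp5g1 lay at 4.74, 1.08 and 2.40 TPM and Atp5g2 at 6.27, 3.82 and 1.76 TPM. Their log2 ratios to Atp5g3 were -3.91 ± 0.58 and -3.29 ± 0.59. Between Atp5g1 and Atp5g2 the log2 ratio was -0.63 ± 1.09, within the spread (exact sign-flip permutation p = 0.5), and 38.3% of the 50-base words of Atp5g2 occur in transcripts of other genes. The membrane genes ranged from Atp5mpl at 224, 71.6 and 113 TPM to Atp5l, subunit g, at 2.84, 1.99 and 0.823 TPM, whose 40, 24 and 9 counts fall on 6443 exon bases. Atp5s was lowest of the complex, with 5, 1 and 3 counts.

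Over the 12 pairs, 8 had counts for both genes in some library and were tested. In 6 of these all 3 libraries had the same sign, each with an exact two-sided sign-flip permutation p = 0.25, the smallest that 3 libraries allow, and an adjusted p of 0.333 over the 8. No pair could therefore pass 0.05, and the sizes and intervals above carry the comparison. Intervals cover counting error only.

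Opposed genes, those with an exon overlapping the exon of another gene in antisense, were 25 of the 93, against 22.1% of protein-coding genes. Another 3 (Uqcrh, Sdha and Ndufv2) overlapped such a gene by span only, and 65 were unopposed. Opposed genes of the set had a median of 25.2 ± 7.29 TPM and unopposed ones 19.0 ± 9.35 TPM. The difference of median log2(TPM + 0.1), opposed minus unopposed, was 0.18, 0.78 and 0.47 in replicates 1, 2 and 3 (0.48 ± 0.30). It was least in replicate 1, where unopposed genes as a whole were high.

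For 18 of the 25 opposed genes the partner of most counts had more counts than the gene itself, for 6 it had fewer, and for 1, Cox6a2, both had none. Per exon base, 9 of the 25 were above that partner. The same counts over all opposed protein-coding genes were not computed, so these are no result about the set. Cox5a had 112, 34 and 32 counts, and the noncoding Gm26631, which overlaps it by 269 bases on chromosome 9, had 2873, 1202 and 2111. Ndufs1 had 214, 94 and 92 counts against 3503, 1087 and 1544 for Eef1b2, a translation elongation factor subunit that overlaps it by 9 bases. Most of the overlap of Ndufs1, 489 bases, is with the noncoding Ino80dos, which had 935, 985 and 782 counts. Cox4i1 had 492, 127 and 190 counts against 1561, 1970 and 1225 for Emc8, a subunit of the endoplasmic reticulum membrane complex. In these cases the partner had more counts than the gene in every library, although per exon base Cox4i1 was above Emc8 in replicate 1 (log2 0.36).

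Similar gaps were seen for Ndufb5 (129, 33 and 54 counts) and the mitochondrial ribosomal protein gene Mrpl47 (1841, 1354 and 1422), which overlap by 616 bases. Uqcrc2 had 353, 137 and 137 counts and Pdzd9 1524, 790 and 1357. Ndufb6 had 94, 33 and 25 counts and Smim27 1177, 515 and 656. In complex V, Atp5o, the stator subunit OSCP, had 250, 64 and 111 counts against 803, 876 and 638 for the antisense gene D430001F17Rik. Atp5d had 496, 249 and 317 against 913, 584 and 938 for Cbarp. The partner had more counts than the gene in each of these pairs in every library, although per exon base Atp5d was above Cbarp in replicates 1 and 2 (log2 0.49 and 0.15).

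The partners of Uqcrb (Gm10767, 1768 counts in all against 288), Ndufa9 (1700018A23Rik, 1399 against 184), Ndufb2 (Gm16272, 1055 against 209), Ndufab1 (Gm44986, 1040 against 248) and Atp5l (Gm30934, 975 against 73) were likewise higher. Atp5j and Gabpa were closer, with 572, 524 and 567 counts against 860, 585 and 621. They overlap by 397 bases, and the promoter window of Atp5j printed above lies at the first exon of Gabpa. Ndufs3 and Kbtbd4 lay at 153, 205 and 128 against 280, 211 and 216. Atp5f1 was the reverse case, with 1423, 1197 and 995 counts against 203, 72 and 51 for Wdr77. Per exon base, the partner was higher in 8 of the 9 pairs with a noncoding partner and in 10 of the 20 with a protein-coding one. Without a check of the strand setting, reads of such pairs cannot be told apart, and the levels of these 25 genes are uncertain. The limit of the strand setting holds for the levels of unopposed genes as well.

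**Figure D3:**
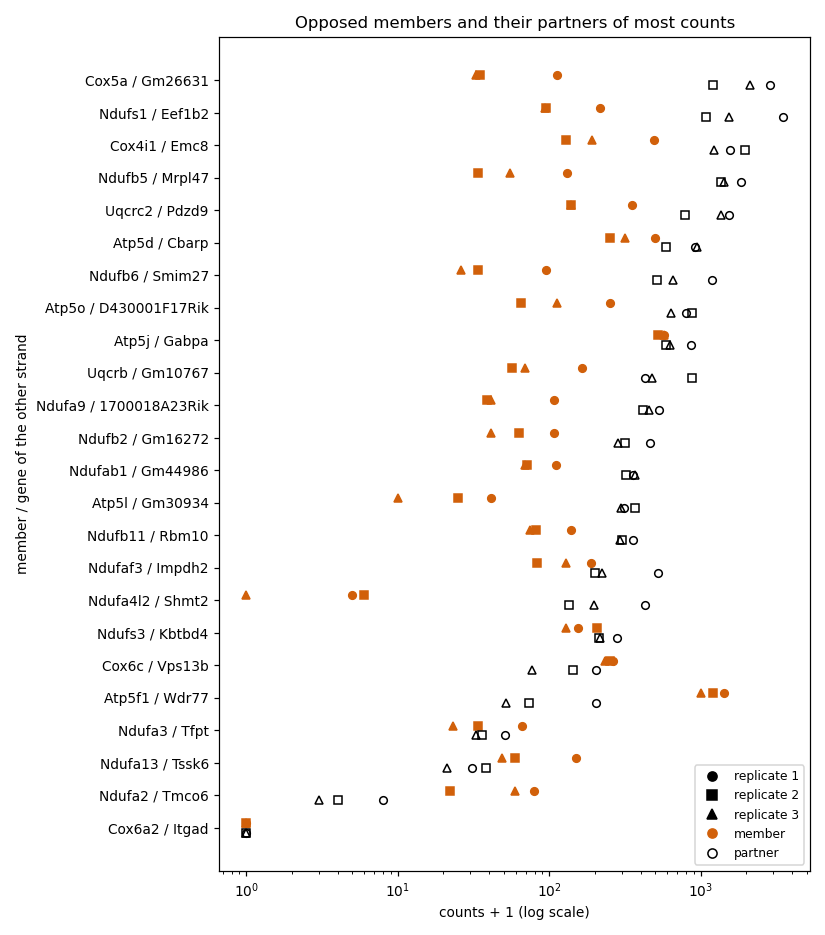
Counts + 1 on a log scale for opposed genes (filled) and the partner of most counts on the other strand (open), with 1 symbol per library. Partners lie to the right for most pairs, from Cox5a with Gm26631 at the top, and to the left for Atp5f1.

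Most genes of the set were highest in the same library. Of the 89 with a count, 79 were highest in replicate 1, against 69.2% of protein-coding genes with a count, and 67 were lowest in replicate 2, against 46.3%. Among unopposed genes kept by the count filter, 50 of 52 were highest in replicate 1, against 91.6% of all such protein-coding genes, so that count was near the background. Lowest in replicate 2 were 46 of 52, against 62.6%. Their median log2 ratio of replicate 1 to replicate 2 was 1.33, against 0.92 for all unopposed protein-coding genes, and that of replicate 3 to replicate 2 was 0.53 against 0.14. The genes of the set are short, with a median of 1372 exon bases against 4173. At under 2000 exon bases, a split chosen after the values were seen, the medians of replicate 1 to replicate 2 were 1.28 for 36 genes of the set and 1.15 for 600 protein-coding genes. At 2000 bases or more they were 1.41 for 16 genes and 0.90 for 3621. Those of replicate 3 to replicate 2 were 0.59 and 0.38 at under 2000 bases, and 0.44 and 0.11 at 2000 or more. Under 2000 bases, 31 of the 36 were lowest in replicate 2, against 450 of the 600. At 2000 or more it was 15 of the 16, against 2191 of the 3621. For opposed genes the median of replicate 1 to replicate 2 was 0.96, against 0.61. The part of the replicate 1 library in these differences was not tested.

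**Figure D4:**
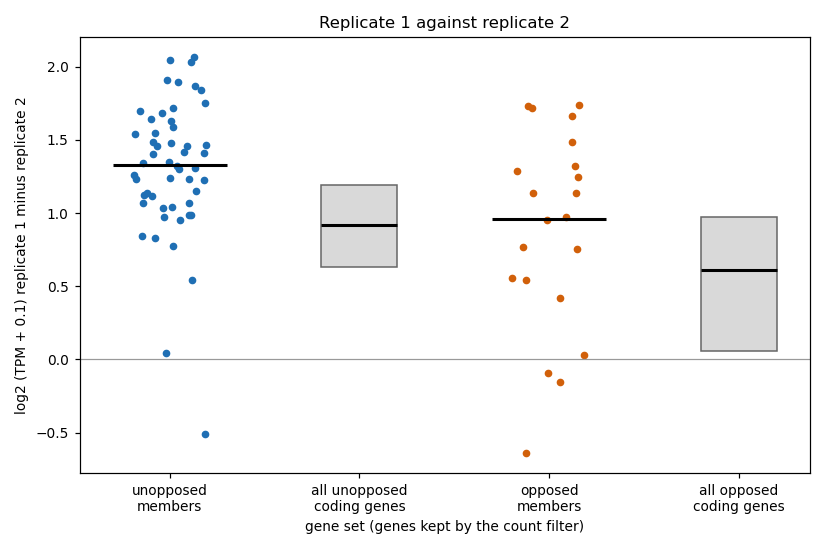
Difference in log2(TPM + 0.1) between replicate 1 and replicate 2. Points are genes of the set, horizontal lines are medians, and grey boxes span the quartiles of all protein-coding genes of the same class. The unopposed genes of the set have a median of 1.33 against 0.92, and Ndufaf7 and Ndufv3 lie lowest among them.

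Scaled to unopposed protein-coding genes alone, the unopposed genes of the set took 1.26%, 1.00% and 1.12% of the TPM (1.13% ± 0.132). The coefficient of variation over the 3 libraries, at a median of 49.6% for the 52 tested unopposed genes, fell to a median of 19.4% on that scale, and was smaller for 50 of the 52. The exceptions were Ndufaf7 and Ndufv3, a flavoprotein-module subunit with 59, 49 and 53 counts. This scale takes out, by construction, a shift shared by unopposed protein-coding genes. The same count over all of those genes was not computed, so the fall is no result about the set.

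Variation beyond that of genes of like abundance gave no call, which is near the background and no result about the set. By the deviance from edgeR's dispersion trend, with Benjamini-Hochberg adjustment over all 9469 genes kept, 0 of the 77 tested genes were called, against 0.253% of all genes tested. At an unadjusted p under 0.05 there were also 0, against 6.44%. Atp5h had the lowest p in the edgeR fit, with an adjusted p = 0.808, and DESeq2 likewise called 0. Fitted on unopposed genes alone, 0 of 51 were called, against 1.29% of all such genes, and 3 (Ndufb7, Ndufaf7 and Atp5h) had an unadjusted p under 0.05, against 6.3%. The 77 are those that passed a filter on low counts, as did 36.3% of protein-coding genes. A test against counting noise alone called 44 of 77, against 59.6% of all genes tested, among them all 14 tested genes of complex V, 12 of 33 of complex I, 8 of 12 of complex IV, 5 of 8 of complex III, 2 of 4 of complex II and 3 of 6 assembly factors. The part of depth in these calls was not tested.

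Other genes of the pathway, from lists chosen with earlier results known, gave 0 calls beyond the trend in each list by edgeR, with 0 or 1 gene per list at an unadjusted p under 0.05. The tricarboxylic acid cycle enzymes, which feed electrons to complexes I and II, reached 1 TPM in every library in 13 of 13 cases, with a median of 16.0 ± 7.12 TPM. Malate dehydrogenase Mdh2 lay at 75.8, 32.2 and 44.6 TPM. Carriers and channels did so in 7 of 7 cases (22.0 ± 4.55), led by the ADP/ATP carrier Slc25a5 at 234, 81.9 and 116 TPM. Cytochrome c (Cycs), at 61.1, 29.1 and 47.9 TPM, stood far above the ubiquinone synthesis genes listed with it, a list with 7 of 12 at 1 TPM and a median of 2.57 ± 0.933. Assembly factors outside the prefixes reached 1 TPM in 27 of 35 cases (6.42 ± 2.01). Cox20, a complex IV assembly factor, lay far above these at 1558, 2066 and 1716 TPM, and is opposed. Regulators of transcription and genome maintenance did so in 15 of 17 cases (8.57 ± 1.55), with Yy1 at 105, 76.2 and 93.8 TPM and Nrf1 at 9.73, 4.41 and 5.16 TPM. Ppargc1a, the coactivator known from mitochondrial biogenesis in muscle and brown fat, had no count.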

How the data were processed

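Mouse Th1 RNA was sequenced in 3 libraries of 1 group, replicates numbered by the labels. The authors deposited unnormalized counts for each gene. Per the file headers, stranded read pairs were counted over exons with featureCounts 1.4.6-p4 at strand setting 1, both reads aligned, with GENCODE vM13 on mm10. The labels call the assay total RNA, while the linked library protocol is named for poly(A)+ RNA. The aligner's version is not given in the sources used here.

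TPM was derived from those counts and each gene's exon length in the same files. Symbols and biotypes came from GENCODE vM21, matched by identifier without version for 50376 of 50600 genes. Overlap with genes of the other strand used the files' coordinates. Shared 50-base words were searched in vM21 transcripts.

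Spread between libraries was tested in edgeR 4.0.16 (R 4.3.3), scaled by TMM, with filterByExpr at a minimum count of 10 and an intercept-only design. The deviance at the trended dispersion, and the chi-square statistic of counts under counting noise, were referred to chi-square with 2 degrees of freedom. Both tests are one-sided, with Benjamini-Hochberg adjustment at 0.05 over 9469 genes. DESeq2 1.42.0 was an alternative. The trend test was tested on simulated counts in which some genes were changed in 1 library. It called 0% of genes changed 1.5-fold, 0% at 2-fold, 38% at 4-fold and 90% at 8-fold. The lack of calls beyond the trend therefore does not show that genes were even between libraries. Paralogues were compared by log2 ratios with 0.5 counts added and exact sign-flip tests, with 95% intervals from summed counts. Log2 levels use TPM + 0.1. The floor for a count of 0 is 3 counts, 0.675, 0.960 and 1.02 CPM in replicates 1, 2 and 3.

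Genes named are the core subunits (1 of them is not reported here or drawn in the figures), the 2 highest and 2 lowest of each complex, both genes of each paralogue pair, up to 15 opposed genes by partner count, genes called by the trend test and genes with no count. Others named, such as Cox6c, Ndufaf7, Ndufv3 and Atp5h, were chosen after their values were seen. The genes and lists were chosen with earlier results of these data known.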

Additional observations from a re-analysis of the deposited data

How the results depend on the processing

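Most values kept their size or direction under the alternatives, which were a CPM scale, other pseudocounts, filters, scalings, tools and leaving out each replicate. No paired analysis was possible because there is 1 group. Scaling TPM to unopposed protein-coding genes alone raised the medians to 86.3 TPM for complex I, 54.7 for its assembly factors, 118 for complex II, 256 for complex III, 159 for complex IV, 206 for complex V and 115 for all 93 genes, by construction. On the same scale the share of the set, taken over unopposed genes, was 1.13%. The median of complex IV was 18.6 on the CPM scale and 54.2 TPM for its genes with 10 counts or more in a library. The opposed minus unopposed difference was 0.85 on the CPM scale. The log2 ratio of Cox7a2 to Cox7a2l, -0.0012 in all libraries, ranged from -0.17 without replicate 2 to 0.087 without replicate 3, and was 0.08 without replicate 1. That of Atp5g1 to Atp5g2 was 0.93 on the CPM scale, which leaves out their exon lengths. Calls beyond counting noise were 44 of 77 in the main fit, against 5642 of all 9469 genes tested. Fitted on unopposed genes alone they were 20 of 51, against 1536 of 4272. Without replicate 1 they were 25 of 76, against 2476 of 9677, and without replicate 2 25 of 79, against 4299 of 10139. Without replicate 3 they were 41 of 80, against 4815 of 10185. The calls thus moved over all genes as well, and their fall is no result about the set. Calls beyond the dispersion trend were 0 under every alternative run, with 0 to 4 genes of the set at an unadjusted p under 0.05. Without replicate 1 these were Ndufb7, Ndufa2, Ndufa6 and Cox6a1, 4 of 76 tested, against 477 of all 9677 genes. Without replicate 3 it was Ndufs3, 1 of 80, against 636 of 10185. Among unopposed genes alone they were Ndufb7, Ndufaf7 and Atp5h, 3 of 51, against 6.3% of those tested. With no filter they were Cox8b and Atp5h, 2 of 89, against 1080 of 19067. These numbers are near or below the background and no result about the set. Of the 93 genes, 5 exceeded 3 counts in no library: Cox4i2, Cox6a2, Cox6b2, Cox7b2 and Cox8c, all restricted forms of complex IV. The part of depth in these few counts was not tested, and the same share over all protein-coding genes is not given.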
